A study of Mus musculus with 8 samples.

Results

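The 10 genes described here encode cytokines of the IL-6 family, chains of their receptors and a feedback inhibitor, among 16464 genes listed in the deposited table. They were chosen by symbol, with earlier results of these data known. The ligands were Il6, Il11, Lif and Osm, the receptor chains Il6ra, Il6st, Il11ra1, Lifr and Osmr, and the inhibitor Socs3. All 10 were listed and all 10 were tested. RNA came from the posterior part of the knee joint capsule of wild-type male C57BL/6 mice aged 10 weeks. In 4 libraries the mice were naive, and in 4 the knee had been fixed in a cast at 140 degrees for 2 weeks from 8 weeks of age. No label states that each library is a separate mouse, so the p values speak only to variation among these samples, which may be technical.

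Cytokines of this family are secreted proteins, and the 4 described here signal through gp130, the product of Il6st, joined to further receptor chains. IL-6 and IL-11 first bind Il6ra and Il11ra1, chains without signalling activity of their own, whereas LIF uses Lifr beside gp130 and oncostatin M, in mice, mainly Osmr. Bound receptors activate Janus kinases and the transcription factor STAT3, which switches on acute-phase genes and Socs3, a brake on the same receptors. In joints the family is known for its part in synovial inflammation and in the response of fibroblasts to injury.

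Of the 10 genes, 3 rose after casting: Osmr among the receptor chains and Il11 and Osm among the ligands. No member fell by the test. Osmr had a log2 fold change of 1.52, Osm of 1.70 and Il11 of 1.54 (limma, Benjamini-Hochberg adjusted p = 0.00888, 0.0189 and 0.0244). Of all 15120 genes tested, 6.51% were called higher and 5.46% lower. In the same 3 members every cast library lay above every naive library, which held for 11.1% of all genes tested, while 9.39% of genes lay wholly below and no member did. The median log2 fold change was 0.73 over the 10 members and 0.07 over all genes tested. A fold change is the cast mean less the naive mean of log2(value + 1), which understates changes of low genes, and values are the authors' normalised read counts.

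**Figure D1:**
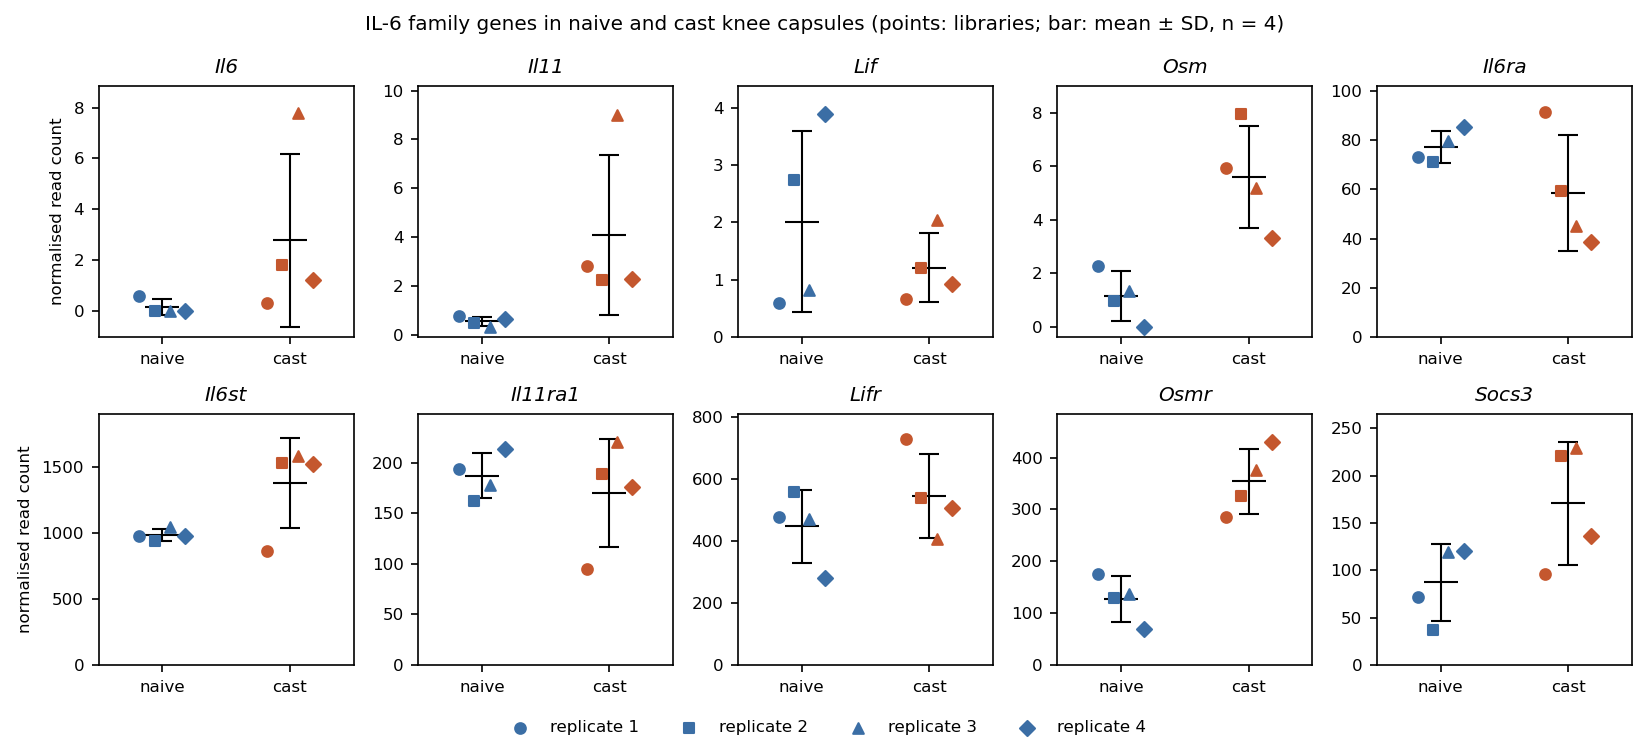
Normalised read counts (vertical axes, linear) of each of the 10 genes in the 4 naive (blue) and 4 cast (orange) libraries, with symbols for replicate numbers and bars for the mean ± SD. The groups do not overlap for Il11, Osm and Osmr, and Il6st and Il11ra1 are lowest in cast replicate 1.

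Libraries differed in depth and in tissue content. Recovered reads were 1503880 to 6805349 per naive and 5956148 to 7381255 per cast library, with naive replicate 4 the shallowest. One read there was worth 0.647, against 0.133 to 0.165 in the other libraries, so its zeros and lowest values are coarse. Fibroblast and synovial lining markers (7 of 7 listed, 1 called higher and none lower) summed to 16543 to 25199 in naive and 19076 to 25254 in cast libraries. The labelled tissue thus held these genes in both groups. Their log2 fold changes were positive for 3 and negative for 4, which a sum does not show. Neutrophil markers (7 of 8 listed, all called higher) summed to 22.5 to 47.4 in naive and 653 to 3725 in cast libraries. Macrophage markers (6 of 6) summed to 2031 to 4223 and 3617 to 4710, and none was called. T cell markers (6 of 6 listed, 5 tested and 4 called higher) summed to 2.15 to 3.88 in naive and 18.7 to 33.1 in cast libraries. Genes were tested if their mean over the 8 libraries was at least 0.5. Some T cell markers had naive means under 0.5 and were tested only through their cast values. Red cell markers (6 of 6, all called higher) summed to 1170 to 1761 in naive and 3926 to 19790 in cast libraries, with 1 of them at 0 in all naive libraries. That marker too was tested only through its cast values. Skeletal muscle markers (7 of 7, 3 called lower) summed to 1211 to 2164 in naive replicates 1 to 3, to 86.03 in naive replicate 4 and to 10.8 to 302 in cast libraries. Apart from that red cell marker, none of these 6 lists held a marker at 0 in all libraries of a group. Their part in the results below was not tested, and in whole tissue more cells of a type cannot be told apart from more RNA per cell. Naive replicate 4 thus stood apart in depth and in muscle content, and its correlation with the other naive libraries was 0.9035 to 0.9153, against 0.9827 to 0.9850 among those 3. Without it 2665 genes in place of 1810 were called (17.6% of those tested, against 11.97%), and among the members the same 3 genes passed, with log2 fold changes of 1.26 for Osmr, 1.38 for Osm and 1.57 for Il11 (limma adjusted p = 0.00206, 0.0118 and 0.0236).

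On GRCm38 with GENCODE M21 annotation, Il6 spans chr5:30013114-30019981 and Il11 chr7:4772373-4782859. Osm (chr11:4236420-4241026) and Lif (chr11:4257557-4272514) are neighbours, and Socs3 lies on the same chromosome at chr11:117966079-117970047. Osmr (chr15:6813577-6874969) and Lifr (chr15:7090614-7197489) also share a chromosome, with 215.6 kb between them. Il6ra spans chr3:89864059-89913196, Il6st chr13:112464070-112510086 and Il11ra1 chr4:41699989-41769474. Values are per gene, so exons and transcript forms are not separated.

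Start-site sequences are shown for the called members that RefSeq's promoter table holds, Il11 and Osmr, and for Socs3, the textbook STAT3 target of the group. They are the 250 bases before the start annotated there, 5′ to 3′ on the gene's own strand, in build GRCm38.p6. For each gene shown, this start lies inside the GENCODE gene span given above and is not its outer end. Capitals mark TTCNNNGAA, the general form of a STAT site, and TGAGTCA, the AP-1 site, each searched on both strands of a window that also took in the 50 bases after the start.
Il11, chr7:4778142-4778391, minus strand: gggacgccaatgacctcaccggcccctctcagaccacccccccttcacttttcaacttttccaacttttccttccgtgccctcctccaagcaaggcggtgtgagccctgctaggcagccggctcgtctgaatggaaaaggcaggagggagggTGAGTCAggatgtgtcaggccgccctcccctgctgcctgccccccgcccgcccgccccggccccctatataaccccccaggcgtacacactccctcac
Osmr, chr15:6874314-6874563, minus strand: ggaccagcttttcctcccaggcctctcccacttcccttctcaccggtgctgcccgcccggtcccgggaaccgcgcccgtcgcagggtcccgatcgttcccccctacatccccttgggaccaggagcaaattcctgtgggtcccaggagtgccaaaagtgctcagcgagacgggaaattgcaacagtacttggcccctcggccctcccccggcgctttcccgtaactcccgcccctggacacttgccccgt
Socs3, chr11:117969367-117969616, minus strand: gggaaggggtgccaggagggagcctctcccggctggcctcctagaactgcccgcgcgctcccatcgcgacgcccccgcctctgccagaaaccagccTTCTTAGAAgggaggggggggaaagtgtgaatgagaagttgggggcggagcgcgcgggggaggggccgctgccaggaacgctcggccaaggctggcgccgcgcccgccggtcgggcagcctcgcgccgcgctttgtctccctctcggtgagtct
The Il11 window held TGAGTCA beginning 98 bases before the start. A further annotated Il11 start, close to the outer end of the gene span, held neither motif and is not shown. The Socs3 window held TTCTTAGAA, a match to the STAT form, beginning 154 bases before the start. The Osmr window held neither. Of the other members, Il6 and Lif each held the AP-1 form, 249 and 228 bases before the start, and those of Il6ra, Il6st, Il11ra1 and Lifr held neither motif. Of 32851 mouse windows of this length, 8.30% held the STAT form and 5.20% the AP-1 form. Windows were found for 9 of the 10 members; Osm was the other. Matches describe letters in these windows.

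Osm encodes oncostatin M, a cytokine made mainly by neutrophils, macrophages and T cells. It was at 2.26, 0.968, 1.32 and 0 in naive replicates 1 to 4. It was at 5.93, 7.94, 5.18 and 3.33 in cast replicates 1 to 4. The lowest cast library thus stood above the highest naive one, and naive replicate 4, the shallow library, held no read of the gene. The means were 1.14 ± 0.934 and 5.598 ± 1.907 (SD, n = 4 each), a log2 fold change of 1.70 with a standard error of 0.38. Pooled over each group, 29 naive and 152 cast reads gave a ratio of 3.88 (95% exact interval 2.60 to 5.99, counting error only). The call was lost without naive replicate 2, cast replicate 2 or cast replicate 3 (limma adjusted p = 0.0518, 0.0579 and 0.0546). It was also lost when cast replicates 1 and 2 were both left out (log2 fold change 1.40, adjusted p = 0.162). Those last 2 libraries carried marrow granulocyte precursor markers (4 of 4 listed) at 93.1 and 249, against 8.18 and 12.5 in the other cast libraries. Cast replicate 2 had both the highest Osm value and the highest neutrophil marker sum, 3725. In cast replicates 1, 3 and 4 that sum was 1053, 653 and 889, with Osm at 5.93, 5.18 and 3.33. Any link between them was not tested.

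Il11 encodes IL-11, a cytokine of stromal cells. Its naive values were 0.753, 0.484, 0.331 and 0.647, the last of these a single read. Its cast values were 2.80, 2.25, 8.999 and 2.27. All cast libraries were above all naive ones, and cast replicate 3 stood far above the other cast libraries. That library, also the highest for Il6, had the highest red cell marker sum, 19790, whose part was not tested. The means were 0.554 ± 0.185 and 4.08 ± 3.29 (SD, n = 4 each), and the log2 fold change of 1.54 had a standard error of 0.36. Pooled reads, 11 naive and 115 cast, gave a ratio of 7.75 (95% exact interval 4.17 to 15.95, counting error only). Of those cast reads, 66 were in cast replicate 3. Without cast replicate 3 the log2 fold change was 1.15 and the call held (limma adjusted p = 0.0271). The call was lost without naive replicate 2 or 3 (adjusted p = 0.0664 and 0.0691) and when cast replicates 1 and 2 were both left out (log2 fold change 1.89, adjusted p = 0.0670). With reads thinned to the depth of the shallowest library the log2 fold change was 1.09 and the adjusted p 0.296.

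Il6, the founding cytokine of the family, did not pass limma. Its naive mean of 0.151 was under the filter of 0.5, so it was tested only through its cast values. A total of 4 reads were seen in the naive group, all in replicate 1 (value 0.603), and naive replicates 2 to 4 were at 0. Cast values were 0.330, 1.80, 7.77 and 1.20, so cast replicate 1 lay below naive replicate 1 and the groups overlapped. The log2 fold change was 1.37 with a standard error of 0.51 (limma adjusted p = 0.116). Pooled reads gave a ratio of 14.8 with a wide interval, 5.57 to 55.7. Without cast replicate 3, which held most of the cast reads, the log2 fold change was 0.84 (adjusted p = 0.188). On recovered reads Il6 passed DESeq2 (adjusted p = 0.0136) and not edgeR's quasi-likelihood test (adjusted p = 0.0660). DESeq2 called 4 of the 10 members higher, against 9.69% of all genes it tested, and edgeR called the same 3 as limma, against 7.29% of genes.

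Lif encodes leukaemia inhibitory factor and lies next to Osm on chromosome 11, with 16.53 kb between the genes. Its naive values were 0.603, 2.74, 0.827 and 3.88, and its cast values were 0.659, 1.20, 2.05 and 0.934. The groups overlapped fully and the log2 fold change of -0.33 had an interval of -1.19 to 0.54 (limma, 95%; adjusted p = 0.634). The neighbouring pair thus differed in the test, one called and the other not, and the difference between their changes was not tested. Pooled reads of Lif, 32 naive and 34 cast, gave a ratio of 0.787 (95% exact interval 0.471 to 1.32, counting error only).

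Osmr encodes the oncostatin M receptor chain and had the smallest p of the 10. Its naive values were 176, 128, 137 and 69.2, and its cast values were 285, 326, 376 and 431. Every cast library was above every naive one, and the shallow naive replicate 4 was the lowest. The means were 128 ± 44.3 and 354 ± 62.97 (SD, n = 4 each), and the log2 fold change of 1.52 had a standard error of 0.28. Osmr passed in all 22 alternatives run, with log2 fold changes of 1.26 to 1.72 and adjusted p values up to 0.0459. Cast replicates 1 and 2, which carried marrow markers, were the lowest of the cast libraries for Osmr.

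Lifr, the LIF receptor chain, lies beside Osmr on chromosome 15. It was at 477, 560, 473 and 280 in naive and at 729, 540, 408 and 507 in cast replicates 1 to 4. The groups overlapped, with naive replicate 4 lowest and cast replicate 1 highest. Its log2 fold change was 0.30 (95% interval -0.29 to 0.89; limma adjusted p = 0.517). Within libraries, the ratio of Osmr to Lifr was 0.370, 0.229, 0.290 and 0.247 in naive and 0.391, 0.605, 0.920 and 0.849 in cast replicates 1 to 4. Each cast ratio was above each naive ratio, though cast replicate 1 was only slightly above naive replicate 1. On the log2 scale the ratio rose by 1.22, and a two-sided exact permutation test gave its lowest possible p with 4 against 4 libraries, 0.02857 (adjusted over 3 ratios, 0.0429). With thinned reads the difference was 1.23 and did not pass (exact permutation, adjusted p = 0.0857).

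Il6st encodes gp130, the shared signalling chain. Its naive values were close together, at 978, 940, 1045 and 979. Its cast values were 868, 1536, 1589 and 1528, so 3 cast libraries were above all naive ones and cast replicate 1 was below them all. The log2 fold change was 0.45 (95% interval -0.10 to 0.99; limma adjusted p = 0.285). Without cast replicate 1 it was 0.65 (adjusted p = 0.0542). That library also differed in tissue markers, with skeletal muscle markers at 302, against 10.8 to 80.95 in the other cast libraries, and fat cell markers at 1321, the lowest of all 8. Whether this bears on its receptor values was not tested.

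Il6ra encodes the IL-6 binding chain, which is strongest in myeloid cells and hepatocytes. Its naive values were 72.9, 70.8, 79.4 and 85.4, and its cast values were 91.5, 59.2, 45.1 and 38.7. Here 3 cast libraries lay below all naive ones and cast replicate 1 above them all. The log2 fold change was -0.46 (95% interval -1.03 to 0.10; limma adjusted p = 0.280). It was -0.70 without cast replicate 1 (adjusted p = 0.0519). With cast replicate 2 left out as well it was -0.86 and passed (adjusted p = 0.0488). The ratio of Il6ra to Il6st was 0.0746, 0.0753, 0.0759 and 0.0872 in naive and 0.105, 0.0385, 0.0284 and 0.0253 in cast replicates 1 to 4. It did not pass (log2 difference -0.91, two-sided exact permutation p = 0.143, adjusted 0.143). An annotated antisense gene overlaps Il6ra, and whether counting used strand is not given in the sources used here.

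Il11ra1, the IL-11 binding chain, was at 194, 162, 178 and 214 in naive and at 94.8, 190, 221 and 176 in cast libraries. The groups overlapped (log2 fold change -0.20, 95% interval -0.77 to 0.38; limma adjusted p = 0.670), and without cast replicate 1 the value turned to 0.06 (adjusted p = 0.854). Its ratio to Il6st was 0.199, 0.173, 0.171 and 0.219 in naive and 0.109, 0.123, 0.139 and 0.115 in cast replicates 1 to 4. Every cast ratio lay below every naive one, cast replicate 1 included. The ratio fell by 0.64 on the log2 scale (two-sided exact permutation p = 0.02857; adjusted over 3 ratios, 0.0429), and with thinned reads it fell by 0.56 and did not pass (adjusted p = 0.0857). Il11ra2, a near copy of this gene, was at 1.48 ± 0.782 and 1.33 ± 0.461, and reads may have been split between them. Genes on the opposite strand, and Galt on the same strand, also overlap the annotated span of Il11ra1.

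**Figure D2:**
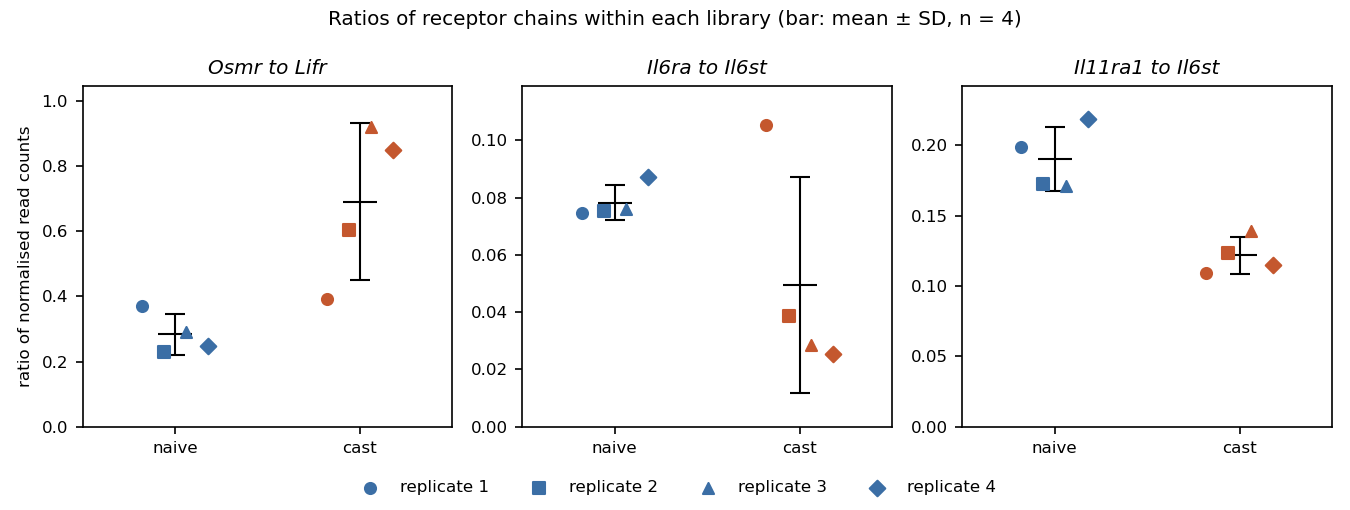
Ratios of receptor chain values within each library (vertical axes, linear from 0), naive in blue and cast in orange, with bars for the mean ± SD of 4 libraries. The ratio of Osmr to Lifr is higher in all 4 cast libraries than in any naive one, that of Il11ra1 to Il6st is lower in all 4, and that of Il6ra to Il6st is lower in 3 of 4, with cast replicate 1 above all naive libraries.

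Socs3, the feedback inhibitor, was at 72.3, 36.8, 120 and 121 in naive and at 96.1, 221, 229 and 137 in cast replicates 1 to 4. Cast replicates 2 to 4 were above all naive libraries, and cast replicate 1 was within the naive range. The means were 87.5 ± 40.7 and 171 ± 65.1 (SD, n = 4 each). The log2 fold change of 1.02 (95% interval 0.09 to 1.94) did not pass after adjustment (limma adjusted p = 0.151), nor did it without cast replicate 1 (1.26, adjusted p = 0.102).

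Compared per kilobase of transcript, receptor chains stood above ligands in naive libraries without overlap, and in cast libraries only the lowest chain, Il6ra, overlapped ligands. Lengths were unweighted medians over 1 to 8 annotated transcripts per gene. The order between genes thus depends on these lengths, and SDs cover spread among libraries only. In naive capsules gp130 (Il6st) had 355 ± 15.7 normalised reads per kb, Lifr 132 ± 34.98 and Il11ra1 98.8 ± 11.7. Socs3 followed with 34.3 ± 15.9, Osmr with 26.9 ± 9.30 and Il6ra with 12.9 ± 1.10. The 4 ligands lay between 0.143 (Il6) and 0.523 (Il11) per kb. Neighbours in that order whose libraries overlapped were Lifr and Il11ra1, Socs3 and Osmr, and all adjacent ligands. In cast capsules Osmr stood at 74.5 ± 13.2 per kb, within the range of Il11ra1 (89.8 ± 28.3) and of Socs3 (66.9 ± 25.5). Cast libraries of Il6ra (6.46 to 15.3 per kb) overlapped those of Il11 (2.12 to 8.50) and Il6 (0.313 to 7.39). Of the cast ligands, Il11 (3.85 ± 3.11), Il6 (2.64 ± 3.22) and Osm (2.46 ± 0.839) overlapped, and Lif (0.309 ± 0.153) lay below Osm in every library.

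**Figure D3:**
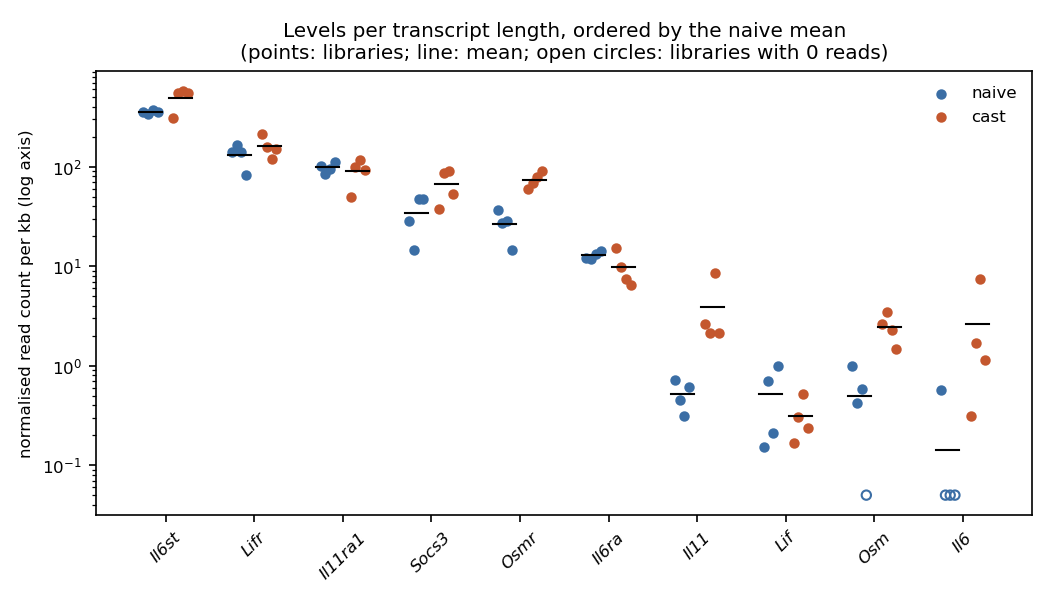
Normalised read counts per kilobase of transcript (logarithmic vertical axis) of the 10 genes, ordered by the naive mean, with a point per library, a line for the mean and open circles for libraries with 0 reads. Receptor chains and Socs3 lie above 6 per kb in every library, and the ligands lie below 9.

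Other parts of the pathway were read from lists, which were chosen with earlier results of these data known. Of all genes tested, 6.51% were called higher and 5.46% lower, with a median log2 fold change of 0.07. Of 12 further ligands and receptors of the family, 9 were tested and 1 rose, with a median log2 fold change of -0.06. That gene was Ebi3, a soluble subunit of IL-27 and IL-35, with means of 2.01 ± 1.18 (naive) and 6.44 ± 3.06 (cast) and a log2 fold change of 1.32 (limma adjusted p = 0.0445). Its call was lost when any of 6 single libraries was left out, and kept without naive replicates 1 or 4. Cntfr, the receptor chain for ciliary neurotrophic factor, had a log2 fold change of -0.88 and did not pass limma (adjusted p = 0.0546). It was called lower by edgeR and DESeq2 (adjusted p = 0.0483 and 0.0198). Every cast library lay below every naive one, as for 9.39% of all genes. Cntfr was chosen after its values were seen.

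Of 11 genes of the kinase and STAT relay, Stat3 alone was called, against 6.51% of all genes called higher and 5.46% lower. The median log2 fold change was 0.14 over the list and 0.07 over all genes. Stat3 was at 257, 228, 196 and 285 in naive and at 338, 417, 346 and 377 in cast replicates 1 to 4, without overlap. Its log2 fold change was 0.62 with a standard error of 0.17 (limma adjusted p = 0.0474). The call was kept in 9 of 22 alternatives and, among single libraries left out, only without naive replicate 4 (0.70, adjusted p = 0.0120), where 3 genes of the list were called (2 higher and 1 lower) among the 17.6% of all genes. Of 13 other brakes, Socs1 and Ptpn1 rose, with a median of 0.10, beside the same 6.51% and 0.07 over all genes. Socs1, an inhibitor of Janus kinases, had means of 3.95 ± 1.69 (naive) and 10.1 ± 3.80 (cast) and a log2 fold change of 1.15 (adjusted p = 0.0375). Ptpn1, a tyrosine phosphatase, was at 67.5 ± 9.71 and 109.5 ± 17.1 (log2 fold change 0.69, adjusted p = 0.0336). Both calls were lost in 6 of 8 runs with a library left out, and 5 brakes were called without naive replicate 4 (4 higher and 1 lower), among the same 17.6% of all genes. Of 4 genes of receptor shedding limma called 0. An unadjusted limma p under 0.05 was held by 1 of them, and by 4026 of all 15120 genes tested. By edgeR 0 were called and by DESeq2 1, against 13.5% and 18.2% of all genes.

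Of 21 textbook STAT3 target genes, 7 rose and none fell by limma, with a median log2 fold change of 0.75. Over all genes tested 6.51% rose and 5.46% fell, with a median of 0.07. The list was chosen with earlier results of these data known, so its share cannot be weighed against these. Several of these genes also respond to other pathways and some are made by neutrophils, so the list is not particular to this family. Lcn2 and Saa3, an iron-binding and an acute-phase protein, were the most increased of the list, by 5.41 and 5.003 on the log2 scale (limma adjusted p = 9.19e-05 and 0.000383). The naive mean of Saa3 was 0.248, under the filter of 0.5, so it was tested only through its cast values (mean 45.2). Serpina3n, a protease inhibitor, rose from 219 ± 154 to 2529 ± 1002, by 3.67 on the log2 scale (adjusted p = 0.00138). Il4ra, the IL-4 receptor chain, rose from 89.3 ± 22.3 to 358 ± 77.8 (2.00, adjusted p = 0.00111). Pim1, a survival kinase, was at 15.1, 9.52, 11.7 and 13.6 in naive and at 55.9, 46.6, 44.2 and 28.3 in cast replicates 1 to 4, a clear separation (1.71, adjusted p = 0.00269). These 5 genes passed in all 22 alternatives. Lbp and Lrg1, acute-phase proteins, rose by 1.55 and 1.80 on the log2 scale (adjusted p = 0.0276 and 0.0343), and both calls were lost in 6 of 8 runs with a library left out. Without naive replicate 4, 11 of the 21 targets were called, with 17.6% of all genes. Fos, an immediate early gene chosen after its values were seen, was at 255, 32.4, 578 and 486 in naive and at 40.9, 59.6, 97.1 and 15.9 in cast replicates 1 to 4, with overlap in naive replicate 2. Its log2 fold change of -2.29 did not pass limma (adjusted p = 0.124), but it was called lower by edgeR and DESeq2 (adjusted p = 0.0450 and 0.0155). Those tests called 8 and 9 targets higher, against 7.29% and 9.69% of all genes.

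**Figure D4:**
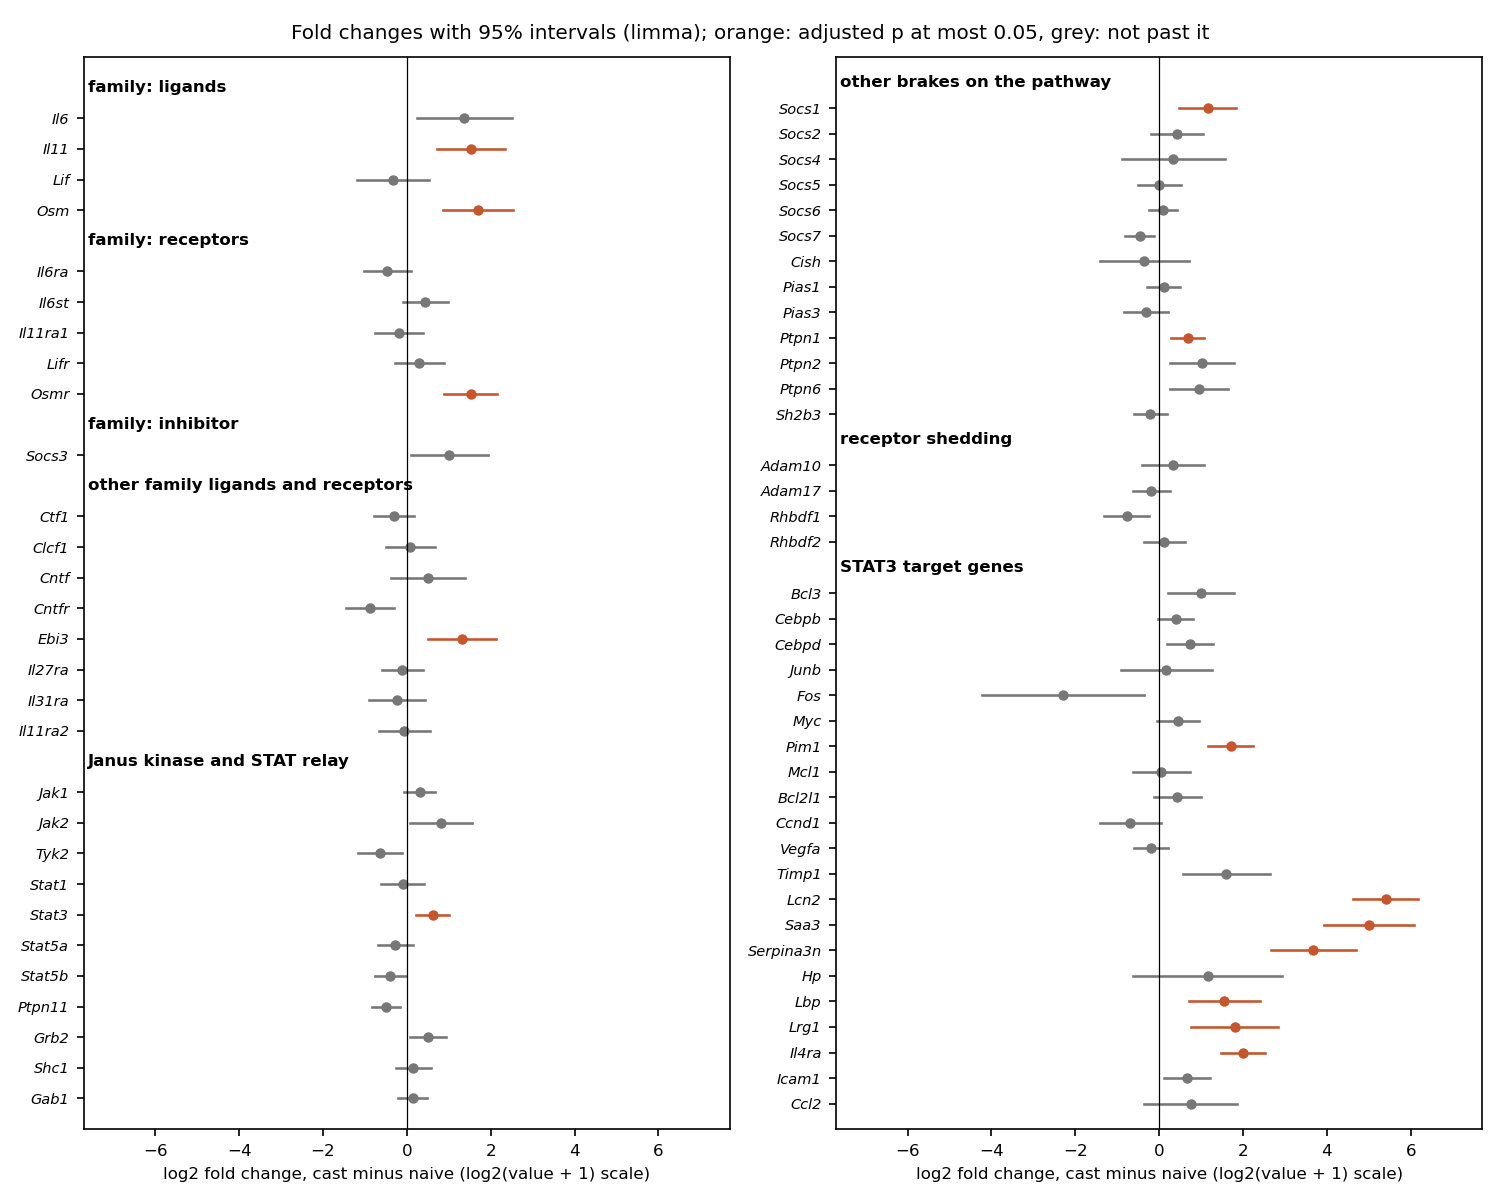
Log2 fold changes (horizontal axes, cast minus naive, log2(value + 1) scale) with 95% intervals from limma for the 10 family genes and tested genes of 5 pathway lists, with 1 list gene not shown. Orange marks genes past the threshold, among them Il11, Osm, Osmr, Stat3, Socs1 and 7 of 21 STAT3 targets, and grey the others.

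The genes most like each called member over the 8 libraries were named by Pearson correlation of log2 values among genes with a mean of at least 5. These correlations include the difference between groups and shared depth, and are descriptions. The mean was over both groups, so genes low in naive libraries could enter through their cast values. Glipr1, Ccnb1 and Rfc3 did so, with naive means of 2.08, 1.67 and 3.42 and cast means of 9.99, 9.33 and 8.90. For Osmr they were Mfsd1 (r = 0.993), Ugcg (0.987) and Lcp2 (0.985). For Osm they were Glipr1 (0.989), Ccnb1 (0.989) and Dck (0.984), and for Il11 they were Rfc3 (0.987), Cxcl16 (0.981) and Isca1 (0.962).

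**Figure D5:**
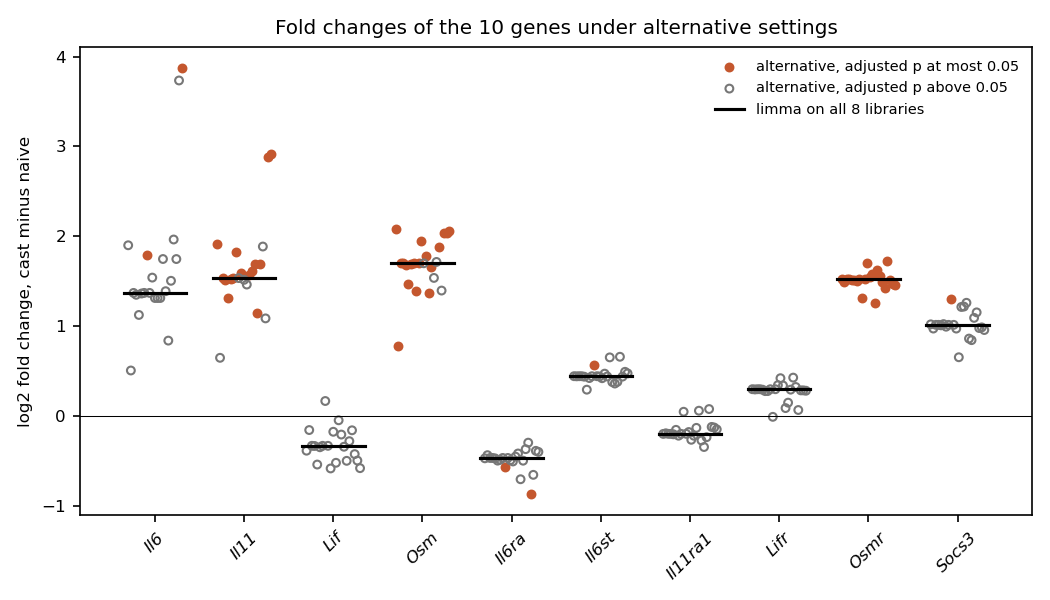
Log2 fold changes (vertical axis, cast minus naive) of the 10 genes under each alternative setting, with a black line for limma on all 8 libraries; filled orange points passed the adjusted p threshold and open grey points did not. Osmr is filled throughout, and Lif, Il11ra1 and Lifr are the genes whose points fall on both sides of 0.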

How the data were processed

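RNA from 4 naive and 4 cast posterior knee capsules was measured. Per the labels' protocols, rRNA-depleted directional libraries from 200 ng of total RNA were sequenced with paired 150-nt reads, and reads were trimmed with Trimmomatic 0.38 and mapped to human hg38 transcripts by Bowtie2 within RSEM. The submitters' processing notes instead name Trimmomatic 0.36 and mouse mm10, with RSEM and edgeR; the gene symbols are murine. Values as deposited by the authors are a signal, namely read counts normalised per library and not rounded. All values were whole multiples, within 0.01, of the value of 1 read (100% of genes), from which reads were recovered; libraries differ in precision accordingly.

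Members and lists were chosen with earlier results of these data known. Values were compared as log2(value + 1) with limma-trend for genes with a mean of at least 0.5, adjusted over all 15120 (Benjamini-Hochberg, threshold 0.05). Receptor ratios were tested by exact permutation over 70 assignments. Named genes were all members, up to 8 called genes per pathway list, and the 3 most correlated genes per called member. Pathway genes named outside this rule are marked as chosen after their values were seen; marker genes are given as sums. A single list gene is not reported here by name, though list counts and medians include it. Alternatives were other pseudocounts, filters, scalings and variance models, a replicate block, libraries left out, thinned reads, edgeR and DESeq2. Transcript lengths (median of GENCODE M21 basic coding transcripts) and coordinates are on GRCm38, the assembly of mm10. Software versions were Python 3.11.15 with scipy 1.17.1 and pandas 2.3.3, and R 4.3.3 with DESeq2 1.42.0, edgeR 4.0.16 and limma 3.58.1.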

Additional observations from a re-analysis of the deposited data

Results flagged for a closer look

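Of 48 groups of 4 libraries examined, 7 held a library far from the other 3, by a gap above Dixon's 95% critical share of the group's range. For independent groups of normally distributed values, chance alone marks about 1 group in 20. A group with reads in only 1 library is always marked, and the ratios share genes with single-gene groups. The 7 of 48 thus cannot be set against that rate. Il11 was at 8.999 in cast replicate 3, against 2.25 to 2.80 in the other cast libraries. Il6st was at 868 in cast replicate 1, against 1528 to 1589, and the ratio of Il6ra to Il6st was 0.105 there, against 0.0253 to 0.0385. That ratio was 0.0872 in naive replicate 4, against 0.0746 to 0.0759 in the other naive libraries. Socs1 was at 6.47 in naive replicate 4, against 2.90 to 3.47. Il6 was at 0.603 in naive replicate 1 and Saa3 at 0.992 in naive replicate 3, both against 0 in the other naive libraries, so these rest on few reads.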

How the results depend on the processing

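Osmr kept its direction and its call in all 22 alternatives, Osm its call in 18 of 22 and Il11 in 15 of 21; all 3 kept their direction. With array weights 7 of the 10 members were called (6 higher and 1 lower, Il6, Il6st, Socs3 and Il6ra being added). That setting called 26.4% of all genes tested, against 11.97% by limma without weights on all 8 libraries. With a library left out 1 to 3 members were called, with 1 without naive replicate 2. With pseudocount 5, Il11 did not pass (0.65, limma adjusted p = 0.0578), and Il6, Il11 and Lif were under the filter of a mean of 2.5. Directions turned for Lif (0.17), Il11ra1 (0.050) and Lifr (-0.0066) with array weights, and for Il11ra1 without cast replicate 1 (0.062; range with a library left out -0.34 to 0.062) or cast replicates 1 and 2 (0.080); none of these passed. The cause was not tested.

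Over all genes, 1810 were called (11.97% of those tested). The count was 3985 (26.4%) with array weights, 2754 (18.2%) by DESeq2 and 717 (4.78%) without cast replicates 1 and 2. By edgeR it was 2039 (13.5%), and with thinned reads 1224 (8.10%). With a library left out it was 916 to 2665 (6.06% to 17.6%). It was 1010, 1043, 1143 and 916 without naive replicate 2, naive replicate 3, cast replicate 2 and cast replicate 3. Other family genes, 1 called, had 3 with array weights, edgeR or DESeq2 (2 higher and 1 lower each). They had 0 with the stricter filter or thinned reads, and 0 to 2 with a library left out. With quantile normalisation, or without cast replicates 1 and 2, the 1 gene called was lower. Ebi3 did not pass there (limma adjusted p = 0.0552 and 0.225). The relay, 1 called, had 4 with array weights and 2 by DESeq2 (1 lower in each). It had 0 without a filter, without a trend, with scaling that left out abundant and marker genes, without cast replicates 1 and 2 or with thinned reads, and 0 to 3 with a library left out. The brakes, 2 called, had 5 with array weights or DESeq2 (1 lower in each), 1 with quantile normalisation, 0 without cast replicates 1 and 2 or with thinned reads, and 0 to 5 with a library left out. Receptor shedding, 0 called, had 1, lower, with array weights or DESeq2. STAT3 targets, 7 called, had 12 with array weights and 5 to 11 with a library left out, with 1 lower without naive replicate 2.

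The ratio of Osmr to Lifr was 1.06 to 1.47 on the log2 scale and that of Il11ra1 to Il6st -0.71 to -0.57 with a library left out, where the group sizes cannot pass after adjustment. They were 1.65 and -0.58 without cast replicates 1 and 2 (exact permutation, adjusted p = 0.133 each), where the group sizes again cannot pass. With thinned reads they were 1.23 and -0.56 (exact permutation, adjusted p = 0.0857 each). Replicate numbers did not pair the samples (correlations of deviations -0.06 to 0.08). With the replicate number as a block, 1371 genes were called, the relay and the brakes had 0, and Il11 did not pass (adjusted p = 0.0542); 2 members passed. Depth limits the ligands most, since in naive replicate 4 a single read is worth 0.647.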
